A study of Mus musculus with 42 samples.

Results

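The genes described here are 10 transcripts that mark the resident macrophage of the peritoneal cavity, taken as a list of names and followed in macrophages of young and old mice over the day. They are Gata6, Rarb, Tgfb2, Icam2, Selp, Fn1, Prg4, F5, Serpinb2 and Garnl3, each found by its symbol among the 47643 genes of the deposited tables. All 10 were among the 12086 genes with a mean of at least 10 reads that were tested for level, so none was lost to the filter on low values.

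The samples were macrophages of C57BL/6 mice of 2 to 3 months (young) or 18 to 20 months (old), with no other treatment or allele named in the labels. Harvest was every 4 h from ZT0 to ZT24, 7 times in all, where ZT (zeitgeber time) counts hours of the light-dark cycle. Each of the 14 groups held 3 libraries, which gives 21 libraries per age and 42 in all. RNA was sequenced from the 3′ end of transcripts, so a read marks a transcript end, and levels can be compared between genes without regard to length. Depth was 7433159 to 13574542 reads (median 9847012) in young and 4864402 to 15587030 (median 8159784) in old libraries. Nothing in the labels ties the 3 libraries of a group to separate animals, so p-values cover only library-to-library spread, which may be technical. The ages were deposited as separate tables, so age and any batch that went with it cannot be told apart. Levels are given as rescaled reads, the reads of all 42 libraries brought to 1 scale by the median of ratios.

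The peritoneal cavity of a mouse holds a large population of self-renewing macrophages. Their identity rests on the zinc finger factor GATA6, which retinoic acid from the surrounding tissue induces. GATA6 and retinoic acid receptors keep on a set of genes that other tissue macrophages do not use, among them genes of adhesion (Icam2, Selp), extracellular matrix (Fn1, Prg4) and clotting (F5, Serpinb2). A second, smaller population in the cavity is replaced from blood monocytes and is known for CCR2 and MHC class II. In bulk RNA, fewer cells of a type and less RNA per cell cannot be told apart.

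Of the 10 genes, 6 lie on chromosome 1 of the mouse genome (positions from GENCODE M21, GRCm38 build, also called mm10). In order along it these are Fn1 (ENSMUSG00000026193, chr1:71585520-71653200, minus strand), Serpinb2 (ENSMUSG00000062345, chr1:107511423-107535478, plus), Prg4 (ENSMUSG00000006014, chr1:150449412-150466165, minus), Selp (ENSMUSG00000026580, chr1:164115264-164150026, plus), F5 (ENSMUSG00000026579, chr1:164151838-164220277, plus) and Tgfb2 (ENSMUSG00000039239, chr1:186622792-186705989, minus). Selp ends 1812 bases before F5 starts on the same strand. Elsewhere lie Garnl3 (ENSMUSG00000038860, chr2:32986224-33131654, minus), Icam2 (ENSMUSG00000001029, chr11:106377656-106388075, minus) and Rarb (ENSMUSG00000017491, chr14:16430839-16819156, minus). All 10 genes are protein coding. Whether reads were counted by strand is not given in the sources used here, which bears most on Rarb: Top2b, on the opposite strand and overlapping it, held 117378 reads over all libraries against 16835 for Rarb. Serpinb2 overlaps Serpinb10 on its own strand (20460 reads against 104868), and Prg4 overlaps Tpr on the opposite strand (110489 against 823135).

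RefSeq promoter windows (GRCm38.p6, 250 bases before to 50 bases after a start) were at hand for 6 of the 10 genes, and those of Rarb, Serpinb2 and Tgfb2 are shown because these genes carry the results on retinoic acid, on the daily rhythm and on single times. Each is written 5′ to 3′ on the strand of the gene, with a matched motif in capitals, searched on both strands.
Rarb (chr14:16575427-16575726, minus strand): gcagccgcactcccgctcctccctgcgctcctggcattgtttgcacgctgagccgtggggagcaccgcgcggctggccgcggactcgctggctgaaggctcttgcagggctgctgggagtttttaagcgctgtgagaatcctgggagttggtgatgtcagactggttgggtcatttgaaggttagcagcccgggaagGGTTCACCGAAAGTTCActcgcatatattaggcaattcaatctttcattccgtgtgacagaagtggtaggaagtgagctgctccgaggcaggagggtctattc
Serpinb2 (chr1:107511173-107511472, plus strand): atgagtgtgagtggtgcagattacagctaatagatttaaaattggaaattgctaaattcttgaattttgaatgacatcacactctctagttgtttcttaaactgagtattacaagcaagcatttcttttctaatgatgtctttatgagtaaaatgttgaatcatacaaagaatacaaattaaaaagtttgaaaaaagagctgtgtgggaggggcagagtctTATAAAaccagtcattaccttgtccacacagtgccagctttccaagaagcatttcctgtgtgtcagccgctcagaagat
Tgfb2 (chr1:186705940-186706239, minus strand): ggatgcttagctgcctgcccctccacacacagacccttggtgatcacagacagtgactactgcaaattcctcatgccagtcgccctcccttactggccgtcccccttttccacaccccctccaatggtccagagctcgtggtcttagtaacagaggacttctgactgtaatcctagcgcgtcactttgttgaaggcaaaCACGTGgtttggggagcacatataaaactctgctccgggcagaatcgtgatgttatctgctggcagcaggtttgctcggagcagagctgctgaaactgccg
In Rarb the capitals mark the retinoic acid response element, here searched as GGTTCA and AGTTCA with 5 bases of any kind between them, at bases -53 to -37 from the start. It was found in 2 of 32851 promoter windows (0.00609%), a share that holds for these exact letters, as Rarb has them, and not for other forms of the element. In Serpinb2 they mark TATAAA at bases -29 to -24, which 13.6% of windows hold. In Tgfb2 they mark the E-box CACGTG, a palindrome read the same on both strands, at bases -51 to -46, which 7.15% of windows hold. The motif TGANTCA, bound by AP-1 factors, was also found in Serpinb2 at bases -94 to -88 (7.81% of windows), and TATAAA in Tgfb2 at bases -31 to -26. The GATA motifs AGATAA (11.2% of windows) and TGATAA (9.05%) were searched too. Of these, AGATAA was found in the window of Tgfb2 shown here, on the opposite strand at bases 1 to 6. A match describes letters and is not evidence of binding.

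The labels call the cells macrophages and name no tissue, so the list was set beside marker genes. Each of the 10 genes was read in every one of the 42 libraries, and the lowest value was 176 rescaled reads of Rarb in 1 old library. All 8 general macrophage markers were measured, with a summed level of 222331 to 334929 rescaled reads in young and 178334 to 315082 in old libraries. Of 8 markers of macrophages of other tissues, 2 were above the filter, and Clec4f of liver and Sall1 of brain macrophages were at 0 in every library. These libraries thus carry the transcripts that define macrophages of the peritoneal cavity. Summed B cell markers lay between 4730 and 8578 rescaled reads in young and between 4714 and 19071 in old libraries.

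The 10 genes kept 1 order of mean level in both ages. Fn1, which encodes fibronectin, was the third most abundant transcript of the young libraries, with 1.55% of their reads (1.35% in old). Prg4, Icam2, F5, Tgfb2, Selp, Serpinb2, Garnl3, Gata6 and Rarb followed in that order, from 17291 to 375 rescaled reads in young and from 21013 to 427 in old cells. Over the libraries of an age the ranges of neighbours in this order overlapped, except between Fn1 and Prg4 and between Gata6 and Rarb in both ages, and between Tgfb2 and Selp in young cells. The factor that defines these cells was thus among the rarest of the 10 transcripts, and a secreted matrix protein the most abundant.

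**Figure D1:**
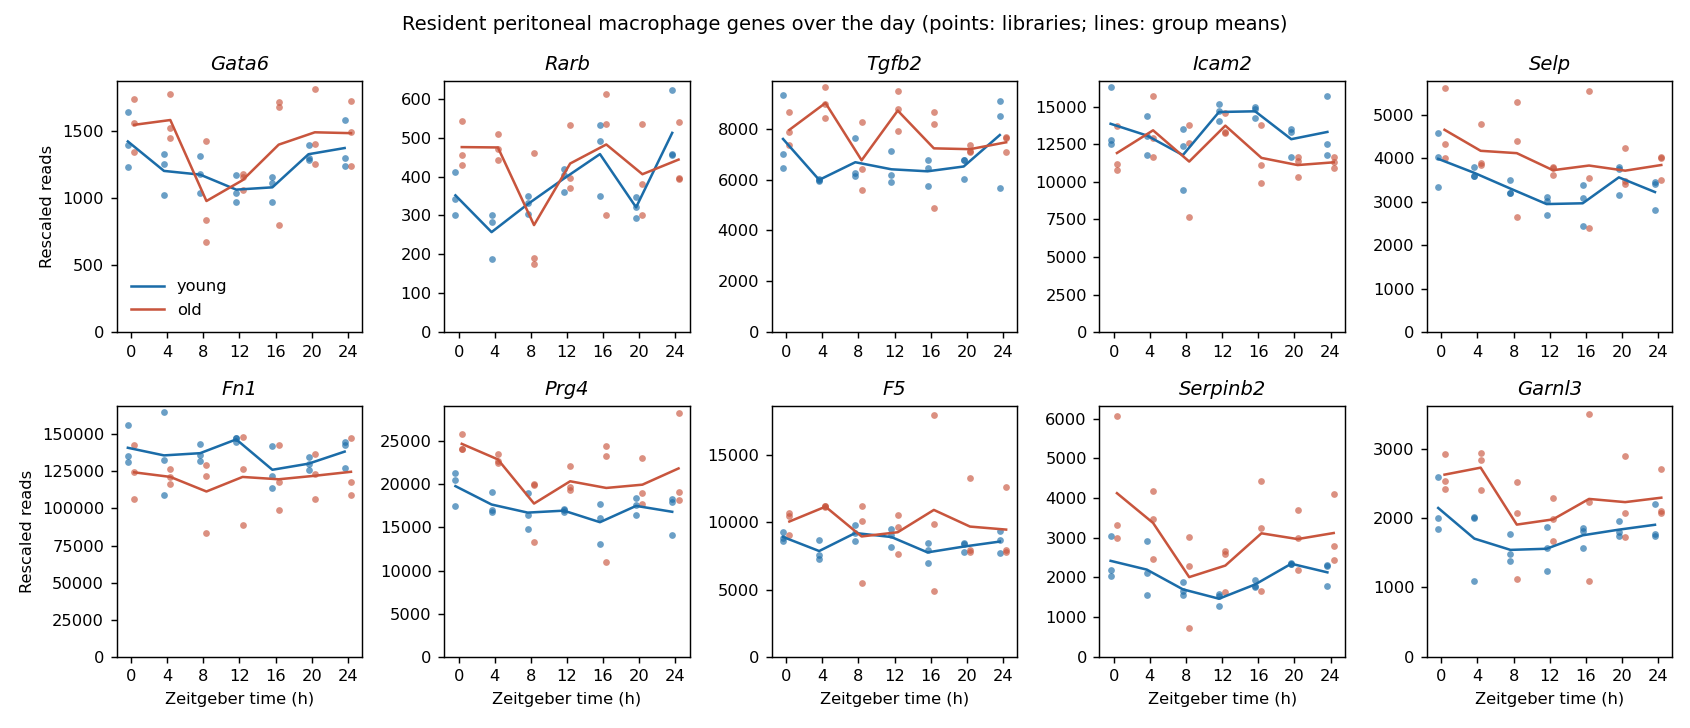
Level of each of the 10 genes in rescaled reads (y axis, from 0) by zeitgeber time in hours (x axis) in young (blue) and old (red) libraries. Points are libraries, 3 per group, and lines join group means. The old mean is above the young mean at all 7 times for Selp, Prg4, Serpinb2 and Garnl3 and below it for Fn1. Points overlap at most times, and the old points at ZT8 and ZT16 spread widely.

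A pair of old libraries stood apart before any test, ZT8 replicate 2 and ZT16 replicate 1. All 10 genes were below their group mean in both, by a mean log2 of -0.57 and -0.64, while the next lowest old library was at -0.15 and the young libraries lay between -0.15 and 0.13. Gata6 held 671 and 798 rescaled reads there, against 837 to 1812 (median 1443) in the other 19 old libraries. Prg4 held 13309 and 10961 against 17742 to 28256, and Garnl3 1129 and 1094 against 1668 to 3502. In both, 7 of the 10 genes were below all 19 other old libraries, the exceptions being Serpinb2, Fn1 and Rarb, which were so in ZT8 replicate 2 alone. The shares of all genes below their group mean or below these 19 libraries are not given here. These counts therefore do not show whether the pair stood apart in the 10 genes more than in others.

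Most markers of small peritoneal or monocyte-derived macrophages were high in the same libraries. The sum of 15 such genes was 114359 and 101118 rescaled reads, against 40915 to 82749 (median 65084) in the other old libraries and 52752 to 108142 in young ones. In both libraries 8 of the 15 genes were above all other old libraries: Ccr2, the receptor that brings monocytes into tissue, the MHC class II genes H2-Aa, H2-Ab1, H2-Eb1 and Cd74, and Retnla, Mrc1 and Folr2. The matching share of all genes is not given here. Ccr2 had 2338 and 3506 rescaled reads against 949 to 1961, and Retnla 42692 and 34538 against 6453 to 27251. Not all went this way. Cx3cr1, with 141 and 230, was below the median of the other old libraries (237) in both. Lyz1, with 8443 and 5880, was below it (8342) in the second alone. General macrophage markers summed to 178334 and 190470 against 202651 to 315082. Summed B cell markers were 19071 in the first, above all other old libraries, and 5558 in the second, within their range of 4714 to 13789. The sums of the 15 genes in young ZT12 replicate 2 (108142) and young ZT8 replicate 3 (106261) lay between those of the 2 old libraries. The 10 genes deviated there by a mean log2 of 0.01 and -0.05. The part of these markers in the levels of the 10 genes was not tested. The levels, rhythms and spread of the 10 genes are therefore also given without the 2 old libraries. Since those were picked for low levels of the 10 genes, a higher level without them follows from that choice.

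**Figure D2:**
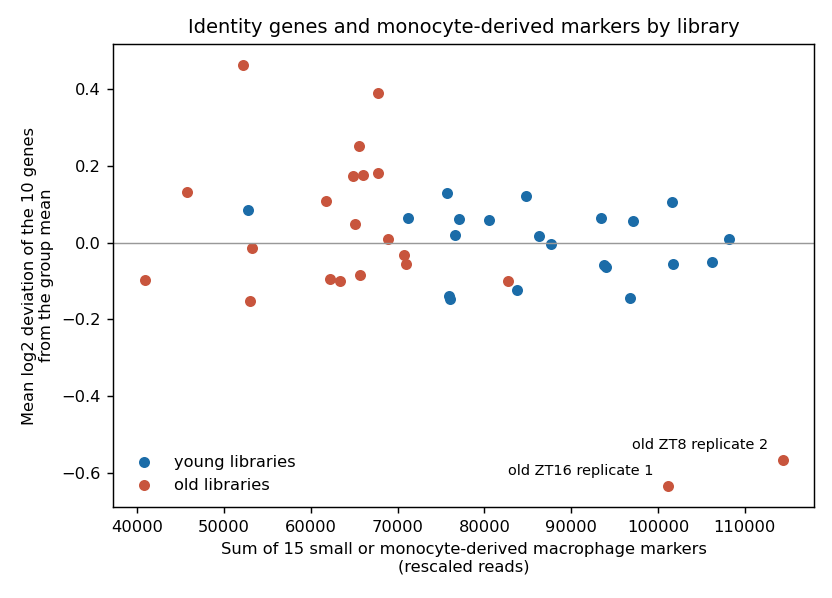
Mean log2 deviation of the 10 genes from the mean of their group (y axis) against the summed level of 15 markers of small or monocyte-derived macrophages (x axis, rescaled reads). Each point is 1 library, young in blue and old in red. Old ZT8 replicate 2 (-0.57) and old ZT16 replicate 1 (-0.64) are the lowest points and have the highest sums among old libraries. Young ZT12 replicate 2, with a sum of 108142 between theirs, is at 0.01.

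The first comparison asked whether the level of these genes, averaged over the day, differs between old and young macrophages. Of the 10 genes, 5 were higher in old cells, Serpinb2, Garnl3, Prg4, Selp and Tgfb2, and 1 was lower, Icam2. The rises were small, between a log2 of 0.20 and 0.50. Gata6, Rarb, F5 and Fn1 were not called. limma with Benjamini-Hochberg adjustment at 0.05 called 23.7% of all 12086 genes in this comparison, 12.0% higher and 11.7% lower. The median log2 of the 10 genes was 0.19, against 0.00 for all genes tested. Without the 2 old libraries that stood apart, 8 of the 10 were called higher and none lower by limma. Over all genes it then called 2803, of which 1402 were higher and 1401 lower.

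Gata6 (ENSMUSG00000005836, chr18:11052064-11085635, plus strand) is the factor that sets the identity of these cells. It had 969 to 1639 rescaled reads (median 1237) in the 21 young libraries and 671 to 1812 (median 1421) in the 21 old ones. The old range took in the whole young range, with 3 old libraries below the lowest young one and 6 above the highest. The difference was a log2 of 0.12 ± 0.08 (SE), with a 95% interval from -0.04 to 0.28 (limma, adjusted p = 0.290). Without ZT8 replicate 2 and ZT16 replicate 1 it was 0.20 (limma, adjusted p = 0.0112). Gata6 was thus not shown to differ over all libraries, and a rise above 0.28 or a fall below -0.04 lay outside the interval.

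Rarb, a receptor for retinoic acid, had 187 to 623 rescaled reads (median 349) in young and 176 to 612 (median 443) in old libraries. These ranges nearly coincide, while 17 of the 21 old libraries were at or above the young median. Its log2 difference was 0.17 ± 0.10 (SE, limma, adjusted p = 0.211), and 0.25 (limma, adjusted p = 0.0336) without the libraries that stood apart. Top2b, whose gene overlaps Rarb on the opposite strand, had a log2 difference of -0.08 ± 0.04 (SE, limma, adjusted p = 0.120).

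Tgfb2, a secreted growth factor of the TGF-beta family, had 5686 to 9321 rescaled reads (median 6462) in young and 4871 to 9642 (median 7863) in old libraries. The ranges overlapped, with 3 of 21 old libraries below the young median. The rise was a log2 of 0.20 ± 0.06 (SE, limma, adjusted p = 0.0145), and 0.25 (adjusted p = 2.92e-04) without the libraries that stood apart.

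The adhesion genes moved in opposite directions. Selp encodes P-selectin, which binds leukocyte glycoproteins and is otherwise known from platelets and endothelium. It had 2441 to 4569 rescaled reads (median 3373) in young and 2387 to 5611 (median 3878) in old libraries, and 2 old libraries were below the young median. Its rise was a log2 of 0.23 ± 0.07 (SE, limma, adjusted p = 0.0169), with the old mean above the young mean at all 7 times. It was 0.31 (limma, adjusted p = 3.47e-05) without ZT8 replicate 2 and ZT16 replicate 1. Of 6 platelet markers only Pf4, which macrophages can express too, passed the filter (log2 -0.82), and of 6 endothelial markers only Pecam1 (log2 0.36).

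Icam2 encodes an adhesion ligand of the integrin LFA-1 and is the surface protein (CD102) by which these cells are often sorted. It had 9447 to 16272 rescaled reads (median 13498) in young and 7683 to 15683 (median 11665) in old libraries. The ranges overlapped widely, and the old mean was lower at 6 of 7 times. The fall was a log2 of -0.16 ± 0.06 (SE, limma, adjusted p = 0.0409). This call was near the threshold. Without ZT8 replicate 2 and ZT16 replicate 1 together the log2 was -0.11 (limma, adjusted p = 0.119). The call was also lost without any 1 of 24 of the 42 libraries (limma, adjusted p up to 0.0752), with a log2 between -0.16 and -0.13. Among young libraries these were replicate 2 of ZT0, 2 and 3 of ZT4, 1 and 2 of ZT8, 2 and 3 of ZT12, 1 and 2 of ZT16, 1 and 2 of ZT20 and 3 of ZT24. Among old ones they were replicates 1 and 3 of ZT0, 2 and 3 of ZT4, 2 of ZT8, 2 and 3 of ZT12, 1 and 2 of ZT16, 3 of ZT20, and 2 and 3 of ZT24.

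Of the matrix genes, Prg4 was higher in old cells. It encodes lubricin, the proteoglycan that lubricates joints and serous surfaces, and had 13024 to 21345 rescaled reads (median 17086) in young against 10961 to 28256 (median 22116) in old libraries. In all, 11 of 21 old libraries were above the highest young one. The rise was a log2 of 0.26 ± 0.07 (SE, limma, adjusted p = 0.00614), and 0.34 (adjusted p = 3.94e-06) without the pair of old libraries.

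Fn1 had 109336 to 165233 rescaled reads (median 135399) in young and 83207 to 148402 (median 121986) in old libraries. Below the lowest young library were 6 old ones, and the old mean was lower at all 7 times. The log2 difference of -0.19 ± 0.07 (SE) was not called (limma, adjusted p = 0.0546). It crossed the threshold under some other settings, at 0.0317 with edgeR's quasi-likelihood test, 0.0199 with DESeq2 and 0.0238 with scaling to the total of reads. It also did so without 1 of 9 libraries (limma, adjusted p from 0.0272 to 0.0496), namely young ZT4 replicate 2 and ZT16 replicate 2 and old ZT0 replicate 2, ZT8 replicates 1 and 3, ZT12 replicate 1, ZT16 replicate 3, ZT20 replicate 3 and ZT24 replicate 3. Without ZT8 replicate 2 and ZT16 replicate 1 it was -0.14 (limma, adjusted p = 0.137).

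Of the clotting genes, Serpinb2 showed the largest rise among the 10. It encodes plasminogen activator inhibitor type 2, which blocks urokinase, and had 1278 to 3039.5 rescaled reads (median 1927) in young against 716 to 6057 (median 2993) in old libraries. The highest and the lowest of the 42 values were both from old libraries, and 8 old libraries were above the highest young one. The rise was a log2 of 0.50 ± 0.12 (SE, limma, adjusted p = 0.00241), and 0.64 (adjusted p = 6.83e-07) without the pair of old libraries. Serpinb10, which overlaps it on the same strand, had a log2 difference of -0.58 ± 0.07 (SE, limma, adjusted p = 2.34e-08), from 556 to 374 rescaled reads.

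F5, the cofactor that speeds thrombin formation, had 6951 to 9789 rescaled reads (median 8610.5) in young and 4884 to 18009 (median 10098) in old libraries. Of the old libraries, 12 were above the highest young one and 2 were below the lowest. The log2 difference of 0.18 ± 0.09 (SE) was not called (limma, adjusted p = 0.190), but was 0.24 (adjusted p = 0.0160) without ZT16 replicate 1 and 0.29 (adjusted p = 0.00117) without both libraries that stood apart.

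Garnl3, whose product carries a domain of GTPase activators of Rap, had 1100 to 2591 rescaled reads (median 1801) in young and 1094 to 3502 (median 2287) in old libraries. Above the highest young library were 6 old ones. It rose by a log2 of 0.34 ± 0.10 (SE, limma, adjusted p = 0.00960), and by 0.45 (adjusted p = 1.33e-05) without the pair of old libraries. Serpinb2, Garnl3, Prg4, Selp and Tgfb2 were each called without any 1 of the 42 libraries.

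**Figure D3:**
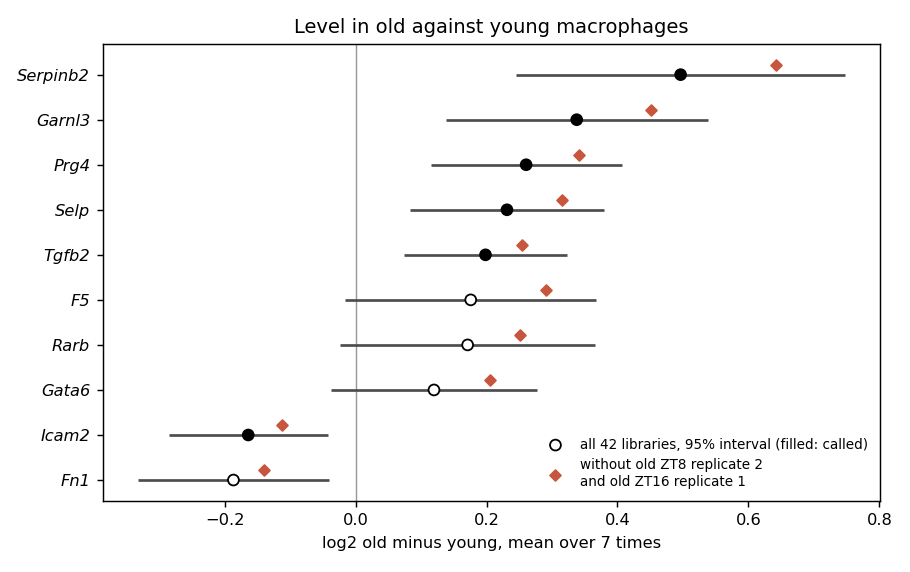
Difference in level between old and young libraries for the 10 genes (x axis, log2 old minus young, mean over 7 times). Circles with 95% intervals are from all 42 libraries and are filled where called by limma, and diamonds leave out old ZT8 replicate 2 and old ZT16 replicate 1. Serpinb2 is highest at 0.50, and Icam2 and Fn1 are below 0.

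Other cells in the samples also differed with age. All 8 B cell markers were higher in old libraries, with a median log2 of 0.60. Without the libraries that stood apart this was again 8 of 8. Of 11 mesothelial and fibroblast markers, Dcn and Krt8 alone passed the filter for level. Dcn had a mean of 4.48 rescaled reads in young and 39.9 in old libraries, and Krt8 5.01 and 23.0. They passed the filter only through the old libraries, so their calls as higher follow from it and are not counted here. The sum of 11 mesothelial and fibroblast genes was 2.60 to 33.0 rescaled reads in young and 30.9 to 154 in old libraries. With scores for B, T and NK, and mast cell markers as covariates, a setting added after the data were seen, limma called Serpinb2 (0.94), Garnl3 (0.48), Selp (0.47), F5 (0.41), Prg4 (0.37) and Tgfb2 (0.29) as higher and no gene of the 10 as lower. Icam2 was then at -0.01 and Fn1 at -0.02 (limma, adjusted p = 0.957 and 0.956). Adding the mesothelial and fibroblast score left none of the 10 called and 88 of all genes. That score was above the highest young value in 18 of 21 old libraries. The median SE over all genes was 0.0902 with no covariates, 0.133 with the B, T and NK, and mast cell scores, and 0.258 with the mesothelial and fibroblast score added. Age and this score can thus hardly be told apart.

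The next comparison asked whether the genes follow a 24 h rhythm. In young macrophages 2 of the 10 did, Gata6 and Serpinb2, both with a fitted peak near the end of the cycle. limma called 3.62% of 12113 genes rhythmic in young cells.

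Gata6 in young libraries had 1392, 1228 and 1639 rescaled reads at ZT0 and 1328, 1250.1 and 1023 at ZT4. It had 1035, 1308 and 1175 at ZT8, 1171, 1039.5 and 972 at ZT12 and 1154, 1111 and 969 at ZT16. It had 1394, 1296 and 1284 at ZT20 and 1580.1, 1295 and 1237 at ZT24. All 6 libraries of ZT12 and ZT16 were below all 9 of ZT20, ZT24 and ZT0. A cosine peaking at ZT 23.8 ± 1.03 (SE) was fitted, with a peak-to-trough fold of 1.31 (limma, adjusted p = 0.0328). The call was lost without young ZT0 replicate 1 or 3, ZT8 replicate 1, ZT12 replicate 2 or 3 or ZT24 replicate 1 (adjusted p from 0.0509 to 0.0913), without the ZT0 libraries (0.125) or the ZT24 libraries (0.0829), and with 7 free time levels in place of a cosine (0.174).

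Serpinb2 had 2035, 2175 and 3039.5 rescaled reads in young cells at ZT0 and 2113, 2918 and 1557 at ZT4. It had 1559.6, 1656 and 1881 at ZT8, 1577, 1533 and 1278 at ZT12 and 1781, 1927 and 1758 at ZT16. It had 2334, 2361 and 2335 at ZT20 and 2279.7, 2311 and 1789 at ZT24. ZT12 had the lowest mean, and the 3 libraries of ZT20 nearly coincided. The cosine peaked at ZT 23.1 ± 0.79 (SE), its fold was 1.54 (limma, adjusted p = 0.00390), and it was called without each of the 21 young libraries in turn.

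The other 8 genes were not called in young cells. Garnl3 (fold 1.32, peak earlier than that of Gata6, limma, adjusted p = 0.138) and Selp (1.25, ZT 1.45, adjusted p = 0.103) had fitted peaks within a few hours of Gata6. Garnl3 was called without ZT4 replicate 3 (0.0388), and Selp without ZT24 replicate 2 (0.0258) or without the ZT24 libraries (0.0203). Rarb differed between times in another shape. Its group means were 352 ± 55.1 (SD, n = 3) at ZT0, 257 ± 61.0 at ZT4, 458 ± 96.6 at ZT16, 321 ± 28.0 at ZT20 and 512 ± 96.1 at ZT24. Its cosine was not called (fold 1.38, adjusted p = 0.357), while the fit with 7 free time levels was (highest over lowest time 2.01, limma, adjusted p = 0.00892). ZT24 and ZT0 fall at the same hour of the day, and all 3 Rarb values of ZT24 (623, 458 and 456) were above all 3 of ZT0 (302, 411 and 342). Tgfb2, Icam2, Prg4, F5 and Fn1 had fitted folds of 1.07 to 1.14.

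In old macrophages none of the 10 genes was called rhythmic, where limma called 0.308% of 12016 genes. Gata6 and Serpinb2 had an unadjusted p under 0.05 (limma), as did 1083 of the 12016 genes. edgeR and DESeq2 also called none of the 10. Over all old libraries the fitted fold was 1.51 for Gata6 with a peak at ZT 22.4 (limma, adjusted p = 0.417) and 1.75 for Serpinb2 with a peak at ZT 22.4 (limma, adjusted p = 0.523). Old Gata6 means were 1543 ± 196 (SD, n = 3) at ZT0, 976 ± 394 at ZT8, 1131 ± 63.2 at ZT12 and 1482 ± 241 at ZT24. In 7 of the 10 genes, Gata6 and Serpinb2 among them, the fitted fold was larger in old than in young cells. The matching share of all genes is not given here. The SD within groups was also larger in old libraries for all 10 genes, and its part in the fitted fold was not tested. Without the libraries that stood apart the old fold was the larger in 2 of the 10. The old fold of Gata6 was then 1.34, near the 1.31 of young cells, and that of Serpinb2 was 1.37, below the 1.54 of young cells.

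The difference in rhythm between ages was tested directly, and none of the 10 genes was called, as was none of the 12086 (0%). The unadjusted p-values of the 10 genes were between 0.302 and 0.813 (limma, adjusted p = 0.999 for each). For all genes 494 had an unadjusted p under 0.05, edgeR called 4 and DESeq2 7, none of them among the 10. Without the libraries that stood apart limma called 0 of the 10 and 0 of all genes. A rhythm called in young and not in old cells is therefore not shown to differ between them for Gata6 or Serpinb2.

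**Figure D4:**
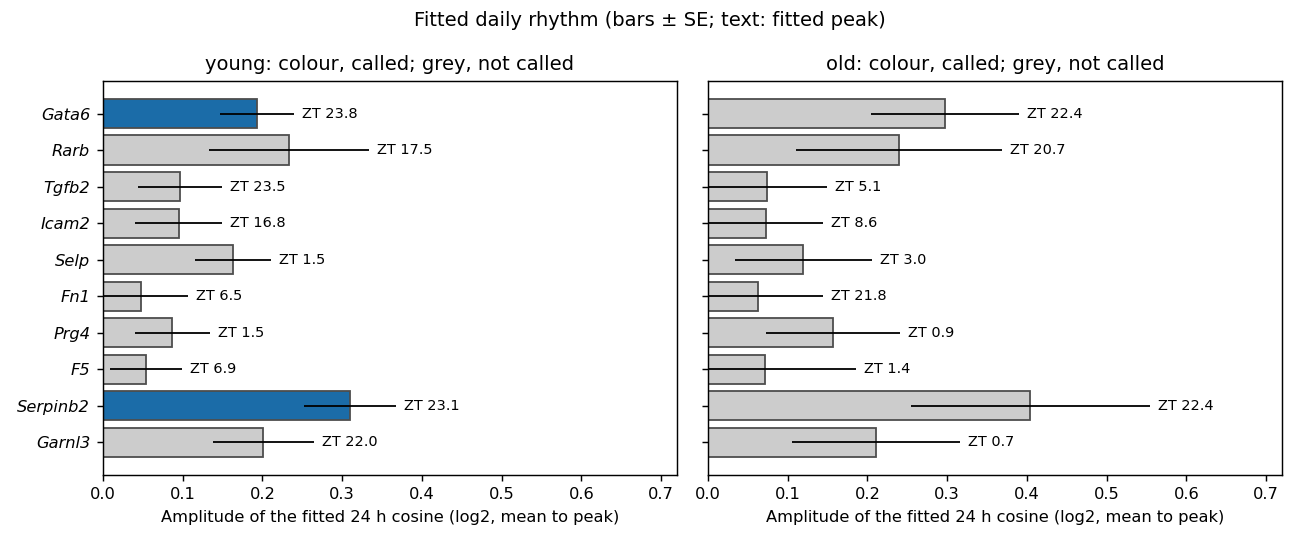
Amplitude of the fitted 24 h cosine (x axis, log2 from mean to peak, bars from 0 with SE lines) for the 10 genes in young (left) and old (right) libraries, with the fitted peak time as text. Filled colour marks a call by limma: Gata6 and Serpinb2 in young and none in old libraries. The SE lines are longer in old libraries.

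At single times none of the 10 genes was called between old and young at any of the 7 times. limma called 0.794% of genes at ZT0, 1.35% at ZT4, 4.01% at ZT8, 2.08% at ZT12, 1.06% at ZT16, 1.65% at ZT20 and 2.09% at ZT24. Of the 70 tests 7 had an unadjusted p under 0.05 (limma). Of all 12086 genes, between 1281 (ZT0) and 1976 (ZT8) had such a p at a single time. Of the 70, edgeR called 0 and DESeq2 2, which were Rarb and Tgfb2 at ZT4. ZT4 was the time nearest to a call. Tgfb2 had 6025, 5998 and 5949 rescaled reads in young and 9642, 8417 and 8996 in old libraries, without overlap (log2 0.59 ± 0.16, SE, limma, adjusted p = 0.0560). Rarb had 284, 300 and 187 against 443, 510 and 472, also without overlap (log2 0.91 ± 0.25, SE, limma, adjusted p = 0.0587).

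The calls at ZT4 moved with libraries of other times, since all groups share 1 estimate of the spread. Without ZT8 replicate 2 and ZT16 replicate 1, limma called Rarb (adjusted p = 0.0235), Tgfb2 (0.0141) and Garnl3 (0.0364) at ZT4. It then also called 5 genes at ZT16, where 2 old libraries remained: Gata6 (log2 0.66), Selp (0.60), Prg4 (0.63), F5 (0.78) and Serpinb2 (1.06), with adjusted p from 0.0216 to 0.0392. Gata6 had 1674 and 1716 rescaled reads in those 2, against 1154, 1111 and 969 in young libraries of ZT16. The ZT16 library left out was picked for low levels of these genes, so larger ZT16 differences without it follow from that choice. Over all libraries the log2 of Gata6 at ZT16 was 0.29. Over all genes limma called 1736 gene and time pairs without the 2 old libraries, against 1576 with them. With single libraries left out, Tgfb2 at ZT4 was called without young ZT0 replicate 2, young ZT24 replicate 2, old ZT8 replicate 2 or 3 or old ZT16 replicate 1, 2 or 3 (0.0205 to 0.0466), and Rarb without old ZT8 replicate 1, 2 or 3 or old ZT16 replicate 1 (0.0206 to 0.0477). Prg4 at ZT16 was called without old ZT16 replicate 1 (0.0435). Rarb at ZT8 was called lower without old ZT8 replicate 3 (log2 -0.84, adjusted p = 0.0307). For Prg4 at ZT16 and Rarb at ZT8 the library left out was of the time tested, so the group mean moved as well.

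Old libraries of a group differed more from each other in these genes. The SD within groups, on the log2 scale, was larger in old than in young libraries for all 10 genes, with a median ratio of 1.92, against 66.3% of all genes and a median ratio of 1.15. F5 had the largest ratio, with an SD of 0.111 in young and 0.480 in old libraries. At ZT16 its old values were 4884, 9856 and 18009 rescaled reads, where the young values were 8423, 7906 and 6951. Without ZT8 replicate 2 and ZT16 replicate 1 the SD was larger in old libraries for 7 of the 10 genes, with a median ratio of 1.39, against 64.8% of all genes and 1.14. Icam2, Tgfb2 and Garnl3 then had the smaller SD in old libraries. The libraries left out were picked for low levels of these genes, so a smaller SD without them follows from that choice.

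**Figure D5:**
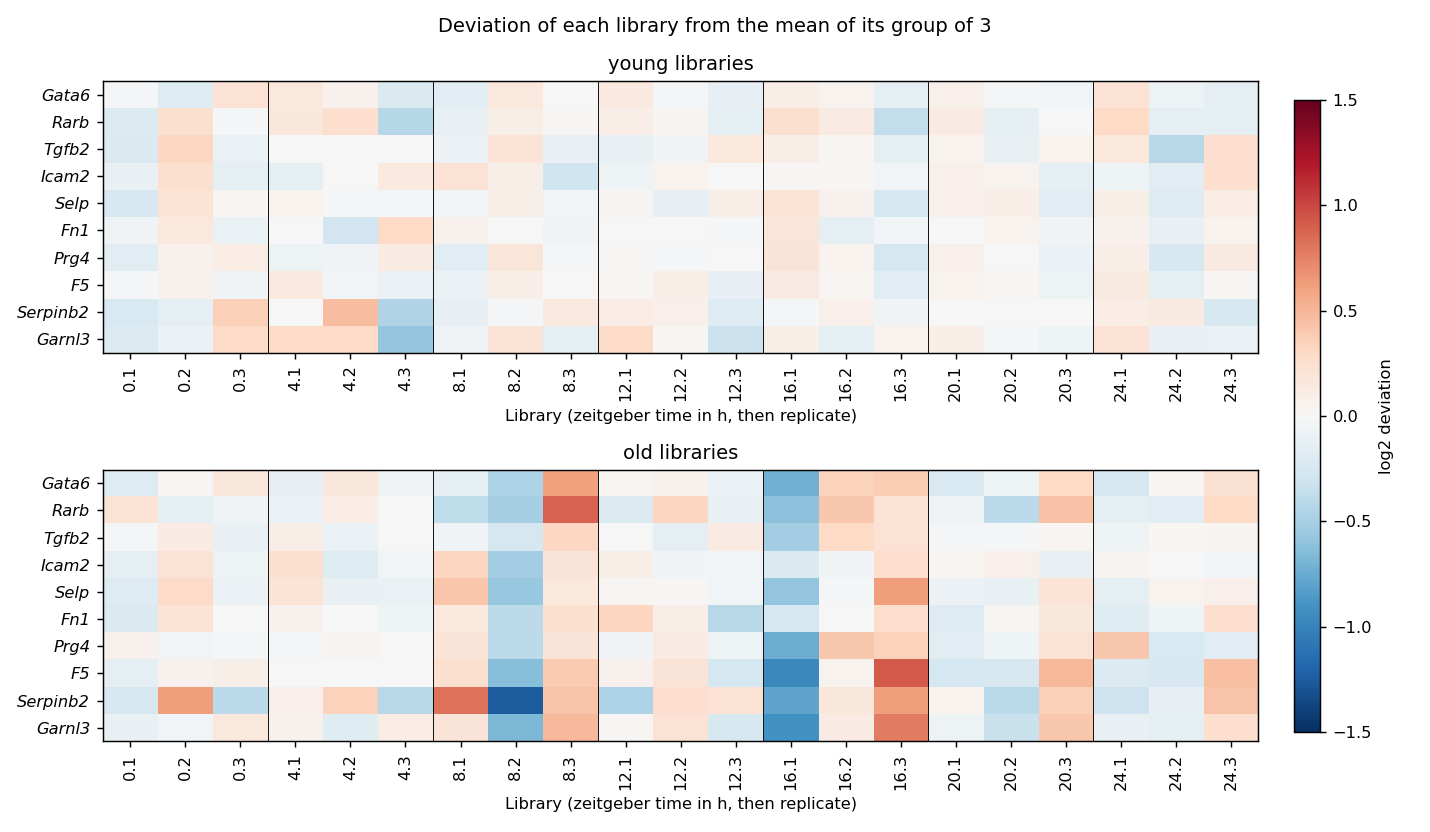
Log2 deviation of each library from the mean of its group of 3 (colour, red above and blue below) for the 10 genes (rows of the map) and the 21 young (top) and 21 old (bottom) libraries, labelled by zeitgeber time in hours and replicate. The old libraries of ZT8 replicate 2 and ZT16 replicate 1 are blue for all 10 genes, and most young squares are pale.

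As a description, the deviations of the 10 genes from their group means were also compared pair by pair across libraries, which share depth and scaling. Over 21 old libraries the median Pearson r of the 45 pairs was 0.68 (0.19 to 0.97), and over 21 young libraries 0.38 (-0.73 to 0.80). Without ZT8 replicate 2 and ZT16 replicate 1 the old median was 0.16 (-0.53 to 0.91). Those 2 libraries were picked because the 10 genes were low in them together, so a lower r without them follows from that choice. F5 and Garnl3 remained the closest pair in old libraries (r = 0.97 with and 0.91 without them). The neighbours Selp and F5 were at 0.86 and 0.63. In young libraries Selp and Prg4 were the closest pair (0.80), and Serpinb2 and Fn1 ran against each other (-0.73).

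Across all 42 libraries, after the mean of each age was subtracted, the genes outside the list most like Gata6 were Adgre1 (r = 0.83), Dapk1 (0.82), Itgb2 (0.82), Ank (0.76) and Rgs18 (0.76). Adgre1 encodes the macrophage surface protein F4/80 and Itgb2 the beta chain of the leukocyte integrins. Without the libraries that stood apart these were 0.70, 0.79, 0.71, 0.70 and 0.67. Within the list Garnl3 (0.81) and Serpinb2 (0.76) were nearest to Gata6, and Icam2 (0.08) was farthest. Over young libraries alone Icam2 was at -0.40 and over old ones at 0.28, and over both ages without the libraries that stood apart it was at -0.41. The positive value in old cells thus rested on those libraries.

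Other genes of the large peritoneal macrophage gave the 10 genes a setting. Of 20 such genes in a wider list, 13 were higher in old cells and 1 lower, with a median log2 of 0.33. Cxcl13, a chemokine that draws B cells, rose from 3028 ± 1270 to 18304 ± 7510 rescaled reads (SD, n = 21; log2 2.59 ± 0.10, SE). Aspa (log2 1.37), Tgm2 (2.15), Lrg1 (1.44) and the acute phase gene Saa3 (1.70) also rose, each with a larger log2 than any of the 10. The lower gene was Timd4 (log2 -0.37 ± 0.08, SE, limma, adjusted p = 9.81e-04), and 6 of the 20 were not called. Of 15 genes of small or monocyte-derived macrophages none was higher and 7 were lower, among them Lyve1 (log2 -2.53), Ccr2 (-0.92), Retnla (-1.05), Lyz1 (-0.60) and Folr2 (-0.89). Of the 8 general macrophage markers 1 was higher and 2 were lower.

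Around Rarb, 14 genes of retinoic acid supply and response were tested, and 3 were higher and 2 lower in old cells. Aldh1a2, which makes retinoic acid, fell from 246 ± 56.1 to 119 ± 62.9 rescaled reads (SD, n = 21; log2 -1.17 ± 0.13, SE, limma, adjusted p = 1.18e-08). Cyp26b1, which breaks it down, rose from 205 ± 44.5 to 387 ± 184 (log2 0.81 ± 0.13, SE, limma, adjusted p = 4.94e-06). Dhrs9 (log2 1.08) and Ncoa1 (0.22) rose and Dhrs3 (-0.17) fell. Dhrs9 encodes a retinol dehydrogenase, on the side of synthesis, and Dhrs3 a reductase that turns retinaldehyde back into retinol. Dhrs9 was low, with a mean of 7.75 rescaled reads in young and 16.9 in old libraries. It passed the filter only through the old libraries, so it could hardly be called lower. With Dhrs9 set aside, Aldh1a2 of supply fell, while of the genes of removal Cyp26b1 rose and Dhrs3 fell. The other 9 of the 14, Rarb among them, were not called.

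Around Tgfb2, 20 genes of the TGF-beta pathway were tested, Tgfb2 among them, and 5 were higher and 3 lower. The binding proteins of latent ligand Ltbp3 (log2 0.80) and Ltbp1 (0.31) and the receptor Tgfbr2 (0.30) rose, while the induced matrix gene Tgfbi fell from 3636 ± 581 to 1869 ± 495 rescaled reads (SD, n = 21; log2 -0.99 ± 0.08, SE) and Nrros fell by 0.22 on the log2 scale. Around F5 and Serpinb2, 16 genes of clotting and fibrinolysis were tested, both among them, and 5 were higher and 4 lower. The clotting factor genes F10 (log2 0.41) and F7 (0.46) rose, and F13a1 (-1.03), S100a10 (-0.30) and the inhibitor gene Tfpi (-0.54) fell. Around Icam2, Selp, Fn1 and Prg4, 27 genes of adhesion were tested, the 4 among them, and 11 were higher and 5 lower. Sdc4 (log2 1.41), Itgb7 (1.22) and Tgm2 (2.15) rose and Sdc1 (-1.45) and Hmmr (-1.39) fell. The higher genes counted include F2r of clotting (mean 8.32 rescaled reads in young and 24.3 in old libraries) and Itgb5 of adhesion (8.16 and 19.8). Both passed the filter only through the old libraries, so they could hardly be called lower. They are also in the counts without the libraries that stood apart. The calls in these lists are limma's over all genes, of which 23.7% were called, and these 4 lists each held genes that moved in opposite directions. Without the libraries that stood apart the genes named here from these lists and from the large and small macrophage lists were called in the same directions. The counts higher and lower were then 14 and 1 for large and 0 and 8 for small or monocyte-derived macrophages, and 0 and 2 for general macrophage markers. They were 4 and 2 for retinoic acid, 5 and 3 for TGF-beta, 7 and 4 for clotting, and 11 and 5 for adhesion.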

How the data were processed

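Macrophage RNA of 21 young and 21 old libraries was measured by 3′ end sequencing, grouped by the age and hour in each label. The authors deposited, for each age in a table of its own, a signal per gene that had been normalized. Per the submitters' processing notes, STAR, DESeq2 and mm10 were used. Counter, annotation, versions and strand setting: not given in the sources used here. Within a library each value is a whole multiple of its smallest step, and dividing by it gave whole reads for 100% of values (tolerance 0.001). Depth per library is given with the results. Reads of 3′ libraries without molecular identifiers are not independent molecules.

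Rhythm was tested within each table and level across ages on recovered reads of all 42 libraries, rescaled by the median of ratios. Both used genes of mean 10 or more, a pseudocount of 1 before log2, and limma 3.58.1 (trend) in R 4.3.3, with Benjamini-Hochberg adjustment over all genes and a threshold of 0.05. Fold changes on this scale understate changes of low genes. A 24 h cosine and sine were fitted for rhythm, their terms with age for the difference in rhythm, and contrasts of 14 group means for level and single times. edgeR 4.0.16 (quasi-likelihood) and DESeq2 1.42.0 on recovered reads, other pseudocounts, filters, scalings, time models, covariates, a block and each library left out were alternatives. Leaving out 2 old libraries together and the smaller covariate set were chosen after the data had been seen. Tests were tested on simulated data. All 10 genes are named, with up to 5 genes of lowest p from the lists around them and the 5 genes most like Gata6 that are not among the 10. Timd4 is named too, as the only lower gene of the large macrophage list. The genes and lists were chosen with earlier results of these data known. Marker lists for dendritic cells (0 higher and 3 lower of 4 tested), mast cells (0 and 1 of 7), T and NK cells (4 and 0 of 6), neutrophils (1 and 1 of 4) and eosinophils (0 and 1 of 1) were also counted. Among the genes called there, Cd8a (mean 5.60 rescaled reads in young and 21.3 in old libraries) passed the filter only through the old libraries. Clec9a (14.0 and 6.43) passed it only through the young ones. Cd8a could thus hardly be called lower, nor Clec9a higher.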

Additional observations from a re-analysis of the deposited data

How the results depend on the processing

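Of 6468 recomputed values none that was called turned direction; F5 in level, not called, was at -0.03 with all covariates. Numbers of genes rhythmic in young cells (438) were 236 with no filter on low values, 696 with DESeq2, 266 with a linear term of time and 262 without the ZT0 libraries, and 322 to 504 with 1 library left out. Of the 10 genes 1 was called with no filter, with the linear term or without the ZT0 libraries, and 1 to 3 with 1 library left out. In old cells the 37 became 91 with DESeq2 and 26 to 45 with 1 library left out. For the difference in rhythm the 0 genes became 5 at a pseudocount of 0.5, 7 at 5, 5 with upper quartile scaling, 1 with array weights, 4 with edgeR, 7 with DESeq2, 3 with 7 time levels, 4 without the ZT0 libraries and 4 with all covariates, and 0 to 6 with 1 library left out. For level the 2863 genes (1446 higher, 1417 lower) became 88 (60 and 28) with all covariates and 1352 (655 and 697) without the mesothelial score among them, and were 2638 to 2994 (1334 to 1512 and 1304 to 1482) with 1 library left out. Without the 2 old libraries 2803 genes (1402 and 1401) were called. Scaling to the total of reads gave 1278 higher and 1645 lower, with a median log2 over all genes of -0.02. The 5 higher of the 10 genes became 0 with all covariates and 8 without the 2 old libraries, and 5 to 6 with 1 library left out. The 1 lower became 0 with no filter, with either covariate set or without the 2 old libraries, 2 with a mean of at least 50, total scaling, array weights, edgeR or DESeq2, and 0 to 2 with 1 library left out. The 1576 gene and time pairs became 2448 with array weights, 244 with all covariates and 1736 without the 2 old libraries, and 1190 to 1935 with 1 library left out. The 0 pairs of the 10 genes became 2 with upper quartile scaling, 2 with DESeq2, 4 with the smaller covariate set and 8 without the 2 old libraries, and 0 to 3 with 1 library left out. The cause was not tested, beyond the fewer genes or libraries that a filter or an omission leaves.

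Replicate numbers did not pair the libraries: same-numbered libraries of different groups had a mean correlation of -0.002 over 273 pairs, 10 of them over 0.1, and 11 of 42 libraries correlated best with their own number. With the replicate number as a block 387 genes were rhythmic in young and 37 in old cells, 0 differed in rhythm, 2836 differed in level (1435 higher, 1401 lower) and 1535 gene and time pairs were called. The block left 2 and 0 of the 10 genes rhythmic in young and old cells, and 5 higher and 1 lower in level.

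Rarb, the rarest of the 10 genes, had a lowest value of 176 rescaled reads. Whether depth limited the results for the 10 genes was not tested. The number of libraries, 3 per group, limits what a single time can show.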
